A study of Homo sapiens with 11 samples.

Results

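The genes described here encode the creatine kinases of muscle (CKM, cytosolic, and CKMT2, mitochondrial), the brain-type cytosolic creatine kinase (CKB), the creatine transporter (SLC6A8), the pair of enzymes that make creatine (GATM and GAMT), and myoglobin (MB). They were taken by symbol from the table of read counts per gene, in which they are 7 of 19990 genes, and all 7 had counts in each of the 11 libraries. The libraries were made from the poly(A) RNA of cardiomyocytes derived from WTC11, a widely used human iPSC line, at passage 63. A single differentiation was driven with CHIR99021, a GSK3 inhibitor, and then IWP2, an inhibitor of Wnt secretion. Its wells were kept in RPMI1640 medium with B27 and insulin, and 4 wells were collected on Day 30, 3 on Day 60 and 4 on Day 113. All groups therefore share line, passage, inducers and medium, and differ in the labels only by day.

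As a model the series has limits that hold for every value below. The wells are replicates of 1 differentiation of 1 line, so each p-value measures the spread between these wells and not that between differentiations or lines. Day of culture and day of collection coincide and cannot be told apart. Cardiomyocyte purity was checked by flow cytometry for cTnT earlier in the culture, per the labels, with no value given. The libraries held 24.1 to 34.5 M counts (M, units of 1000000), 18796 to 19533 genes were detected in each, and any pair of wells collected together was further apart than sampling noise gives (chi-square per degree of freedom 11.4 to 84). The labelled cell type was checked against 13 cardiomyocyte markers, all detected on each day, which summed to 35620 to 50840 counts per 1000000 counts (CPM) in every library. Of 13 skeletal muscle markers, relevant because CKM and MB are also high in skeletal muscle, 6 were in the table, and their sum was 16.6 to 22.1 CPM in the wells of Days 30 and 60 and 2.89 to 9.04 CPM at Day 113. MYOD1 was at 0 in all Day 30 libraries. MYOD1 and MYOG passed as higher at Day 113 than at Day 30, at means of 0.525 and 0.356 CPM, while TNNT3 fell from 7.05 to 1.01 CPM and ACTN3 from 8.97 to 0.535 CPM (edgeR, adjusted p = 0.0157, 0.0273, 0.000171 and 9.3e-08).

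Creatine kinases pass a phosphate group between ATP and creatine. In heart muscle, the mitochondrial enzyme charges creatine where ATP is made, and the cytosolic enzymes use phosphocreatine to refill ATP beside myosin and the calcium pumps. Creatine is made from arginine and glycine by GATM and then GAMT, mostly in other organs, and enters muscle cells through SLC6A8, while MB binds oxygen in the cytosol. In the developing heart the brain-type enzyme is classically replaced by the muscle-type enzyme.

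The proximal promoters of the genes that rose together between Day 30 and Day 60 are printed first, with that of CKB, which did not rise, for comparison. Each is the 250 bases before the RefSeq start site (GRCh38.p14), read 5′ to 3′ on the strand of the gene. Capitals mark matches, on either strand, to the E-box CANNTG, the A/T-rich core TATTTTTA read by MEF2 factors, the oestrogen-related receptor site AAGGTCA, the short TATA box TATAAA, the TEAD core CATTCC and the CCAAT box.
CKM, chr19:45322876-45323125, minus strand: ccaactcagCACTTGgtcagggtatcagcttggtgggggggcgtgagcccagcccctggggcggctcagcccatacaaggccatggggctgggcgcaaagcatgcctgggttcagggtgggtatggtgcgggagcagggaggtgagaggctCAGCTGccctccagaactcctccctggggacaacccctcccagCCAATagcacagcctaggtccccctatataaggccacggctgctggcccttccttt
CKMT2, chr5:81233072-81233321, plus strand: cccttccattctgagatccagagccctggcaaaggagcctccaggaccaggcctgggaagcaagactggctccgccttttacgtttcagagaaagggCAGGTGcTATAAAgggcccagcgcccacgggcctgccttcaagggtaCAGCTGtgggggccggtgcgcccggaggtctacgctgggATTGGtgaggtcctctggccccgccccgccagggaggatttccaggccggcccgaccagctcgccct
MB, chr22:35622530-35622779, minus strand: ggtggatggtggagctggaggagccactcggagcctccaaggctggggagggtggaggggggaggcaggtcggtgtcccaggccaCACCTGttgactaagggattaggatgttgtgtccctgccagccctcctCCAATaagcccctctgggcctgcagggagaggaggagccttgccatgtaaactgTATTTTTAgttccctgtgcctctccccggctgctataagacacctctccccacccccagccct
SLC6A8, chrX:153687676-153687925, plus strand: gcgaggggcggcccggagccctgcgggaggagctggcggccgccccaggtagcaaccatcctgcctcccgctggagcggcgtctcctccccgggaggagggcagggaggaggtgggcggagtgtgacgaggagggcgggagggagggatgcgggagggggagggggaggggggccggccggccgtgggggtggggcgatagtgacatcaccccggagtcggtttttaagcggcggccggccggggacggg
CKB, chr14:103522831-103523080, minus strand: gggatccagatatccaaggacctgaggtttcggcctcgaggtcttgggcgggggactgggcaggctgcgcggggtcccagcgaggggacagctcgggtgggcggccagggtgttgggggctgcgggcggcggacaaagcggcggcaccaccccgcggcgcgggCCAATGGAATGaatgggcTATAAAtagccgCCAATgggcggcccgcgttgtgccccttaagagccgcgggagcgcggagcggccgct

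The windows of CKM and CKMT2 each held the form CAGCTG, which is found in 14.0% of 35116 RefSeq promoter windows of this length and is itself one form of CANNTG (61.8% of windows). The CKM window also held CACTTG, and that of CKMT2 held CAGGTG and TATAAA (10.7% of windows). Both also held 1 CCAAT box, read as ATTGG on the printed strand for CKMT2, and 1 match to the GC box GGGCGG. MB has 3 RefSeq start sites. The window printed is the only one of its 3 with TATTTTTA, which is in 2.09% of all windows, and it also held CACCTG and CCAAT (32.0%). Another MB window (chr22:35623355-35623604) held AAGGTCA, found in 3.44% of windows, and the third (chr22:35622203-35622452) held none of the marked motifs. The SLC6A8 window held none of the marked motifs and 4 matches to the GC box GGGCGG (42.6% of windows, not capitalised here), with a GC content of 76.4% against a median of 58% over all windows. The CKB window held 2 CCAAT boxes, TATAAA, 4 matches to GGGCGG and 1 to CATTCC (11.9% of windows, here as GGAATG on the printed strand), and no CANNTG. GATM (chr15:45378545-45378794) held CACCTG and 3 matches to GGGCGG, and a CCAAT box. GC content was 64.4% for CKM, 65.6% for CKMT2, 61.6% for the printed MB window, 70.8% for CKB and 72.8% for GATM. A match only says that these letters are in this window.

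Between Day 30 and Day 60 the muscle-type kinases, the creatine transporter and myoglobin rose together and GATM fell. Of the 7 genes, 5 had an adjusted p below 0.05 (4 rose and 1 fell), where 10.3% of all 19990 genes did (4.39% higher and 5.91% lower). The same 5 had no overlap between the wells of both days, which held for 24.8% of all genes (10.7% higher and 14.1% lower). Between Day 60 and Day 113, MB fell and GATM rose, and these 2 were also the genes without overlap (24.0% of all genes passed, 12.9% higher and 11.1% lower, and 30.6% had no overlap, 16.2% higher and 14.4% lower). By Day 113, 5 were higher than at Day 30 and CKB was lower, where 34.5% of all genes passed (17.3% higher and 17.2% lower). Wells did not overlap for 5 of the 7 in that comparison, against 35.1% of all genes (17.1% higher and 18.0% lower). CKM, CKMT2, MB and SLC6A8 passed as higher on both later days than on Day 30, which 3.13% of all genes did. The median log2 fold change of the 7 was 0.61, -0.19 and 0.34 in the 3 comparisons, beside -0.01, 0.00162 and -0.02 over all genes. The 3 comparisons share libraries and are not independent. Other markers moved over the same days. The 8 dividing-cell markers summed to 394 to 485 CPM in the Day 30 wells, 589 to 833 at Day 60 and 294 to 480 at Day 113, with Day 60 above all other wells. The 10 liver-type endoderm markers averaged 1044, 53.4 and 32.5 CPM in sum on the 3 days. The 9 fibroblast and epicardial markers summed to 3358 to 7713, 2087 to 3594 and 5477 to 13080 CPM. The part of these cells in the results was not tested. In RNA from whole wells, fewer cells of a type and less RNA per cell cannot be told apart.

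**Figure D1:**
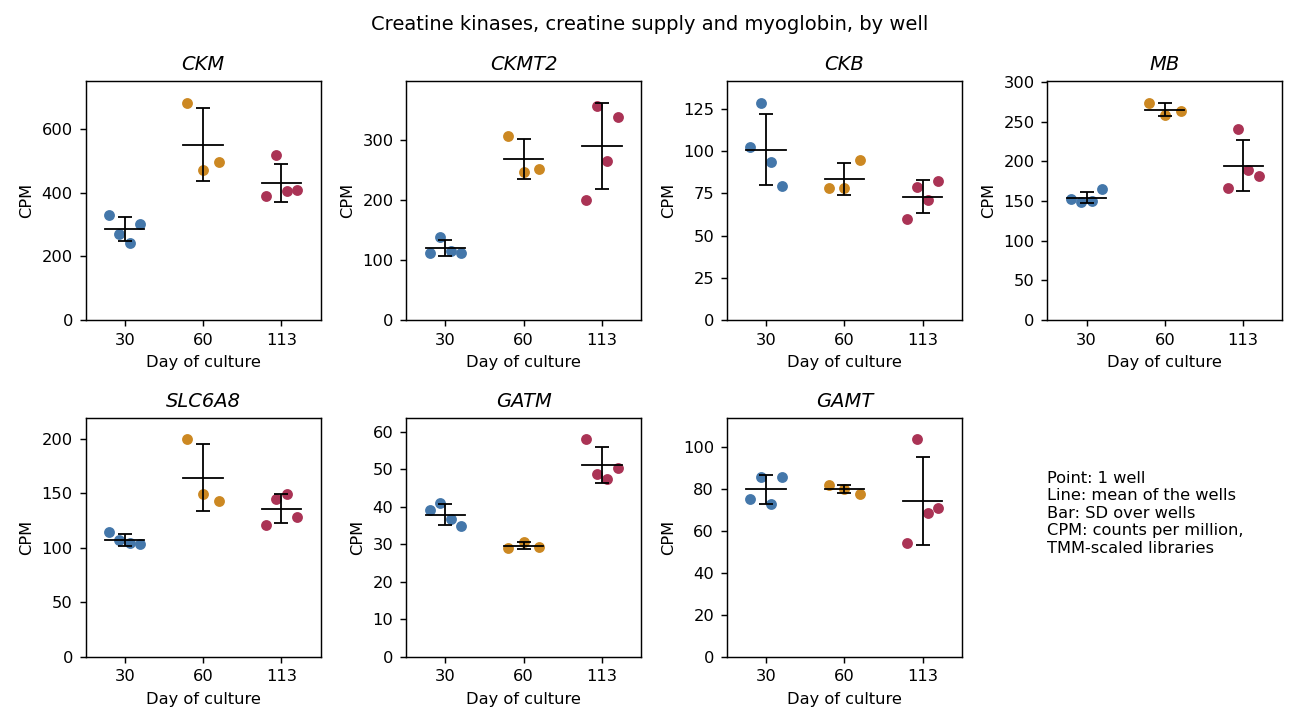
Level of each gene in counts per 1000000 counts (CPM, linear axis from 0) in each well, by day of culture; points are wells, long lines are means and bars are SD (n = 4, 3 and 4). The Day 30 wells of CKM, CKMT2, MB and SLC6A8 lie below all Day 60 and Day 113 wells, GATM is lowest at Day 60, and the wells of GAMT overlap on all days.

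CKM (chromosome 19, 45306414 to 45322977, minus strand, GRCh38, 8 exons) encodes the cytosolic kinase of striated muscle, part of which is bound at the sarcomere M-band. Its levels in the Day 30 wells were 330.2, 272, 242 and 303 CPM, with a mean of 287 ± 38.0 (SD, n = 4). The Day 60 wells had 682, 472 and 497 CPM (550.4 ± 115, SD, n = 3), and the Day 113 wells had 389, 517, 404 and 408 CPM (429 ± 58.8, SD, n = 4). Every well of both later days was above every Day 30 well, while the Day 60 and Day 113 wells overlapped. The summed cardiomyocyte markers were at 35620 to 47800, 44980 to 50840 and 38500 to 42710 CPM on the 3 days, and their part in the result was not tested. CKM rose 1.92-fold by Day 60 (log2 fold change 0.94 ± 0.143, SE; edgeR, adjusted p = 6e-04) and was 1.50-fold above Day 30 at Day 113 (adjusted p = 0.00306). The difference from Day 60 to Day 113 was -0.36 ± 0.143 on the log2 scale (95% interval -0.66 to -0.05), which did not pass after adjustment (edgeR, adjusted p = 0.0831). It passed without Day 113 well 2 (-0.46, adjusted p = 0.0229), with DESeq2 (-0.37, 0.0374) and with upper-quartile scaling (-0.42, 0.0387).

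CKB (chromosome 14, 103519659 to 103523111, minus strand, 8 exons) encodes the brain-type cytosolic kinase, found in brain, smooth muscle and the embryonic heart. Day 30 wells had 102, 129, 93.8 and 79.2 CPM (101 ± 20.8, SD, n = 4), Day 60 wells 78.0, 78.1 and 94.6 CPM (83.6 ± 9.55, SD, n = 3), and Day 113 wells 60.1, 78.9, 71.0 and 82.5 CPM (73.1 ± 9.90, SD, n = 4). Wells overlapped between every pair of days, and Day 30 well 2 was the highest of all. CKB was 1.38-fold lower at Day 113 than at Day 30 (log2 fold change -0.47 ± 0.138, SE; edgeR, adjusted p = 0.0155). That call was lost without Day 30 well 2 (-0.32, adjusted p = 0.0739). Neither single interval passed (-0.27, adjusted p = 0.304, and -0.19, adjusted p = 0.385). Beside it, 9 measured neural markers summed to 45.3 to 82.2 CPM in the Day 30 wells, 66.4 to 114 at Day 60 and 37.0 to 76.7 at Day 113. The 6 smooth muscle markers summed to 859 to 1211, 968 to 1199 and 1156 to 1663 CPM. Each of these markers had reads in some well of each day, but some were near 0, such as ELAVL3 at a mean of 0.0353 CPM at Day 30. Their part in the CKB result was not tested.

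The balance of muscle-type and brain-type kinase was measured as the ratio of CKM to CKB counts within each library, which does not depend on how libraries are scaled and which rises when CKM rises alone. Day 30 wells held 3.23, 2.11, 2.58 and 3.82 CKM counts per CKB count. At Day 60 the ratios were 8.74, 6.04 and 5.25, and at Day 113 they were 6.46, 6.55, 5.69 and 4.95. All later wells exceeded all Day 30 wells, and the later days overlapped. The mean log2 ratio went from 1.52 ± 0.374 (SD, n = 4) to 2.71 ± 0.380 (n = 3) and 2.56 ± 0.189 (n = 4). It was higher by 1.19 at Day 60 and by 1.04 at Day 113 than at Day 30, each with a two-sided exact permutation p of 0.0286, the smallest these groups allow, or 0.0429 adjusted over 3 tests. Between Day 60 and Day 113 it differed by -0.15 (exact permutation p = 0.6). CKM passed its own test by Day 60 and CKB did not. The adjusted p of the Day 113 difference was 0.0857 when any Day 30 or Day 60 well was left out.

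CKMT2 (chromosome 5, 81233285 to 81266397, plus strand, 11 exons) encodes the mitochondrial creatine kinase of striated muscle, which sits between the mitochondrial membranes. Day 30 wells had 112, 139, 115 and 112 CPM (119.5 ± 13.0, SD, n = 4). Day 60 wells had 306, 246 and 251 CPM (267 ± 33.4, SD, n = 3), and Day 113 wells had 199, 356, 265 and 338 CPM (289.5 ± 71.9, SD, n = 4). All later wells lay above all Day 30 wells, and the Day 113 wells spread on both sides of the Day 60 wells. CKMT2 rose 2.24-fold by Day 60 (log2 fold change 1.16 ± 0.162, SE; edgeR, adjusted p = 0.000313) and was 2.42-fold above Day 30 at Day 113 (adjusted p = 1.18e-05). From Day 60 to Day 113 the log2 difference was 0.11, with a 95% interval of -0.23 to 0.46 (edgeR, adjusted p = 0.67), and it was -0.001 without Day 113 well 2. The other mitochondrial kinase, of tissues other than striated muscle, comes from the near-identical genes CKMT1A and CKMT1B. Counts given to CKMT1B, the copy in the table, are uncertain for that reason and averaged 0.263, 0.138 and 0.0603 CPM on the 3 days.

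**Figure D2:**
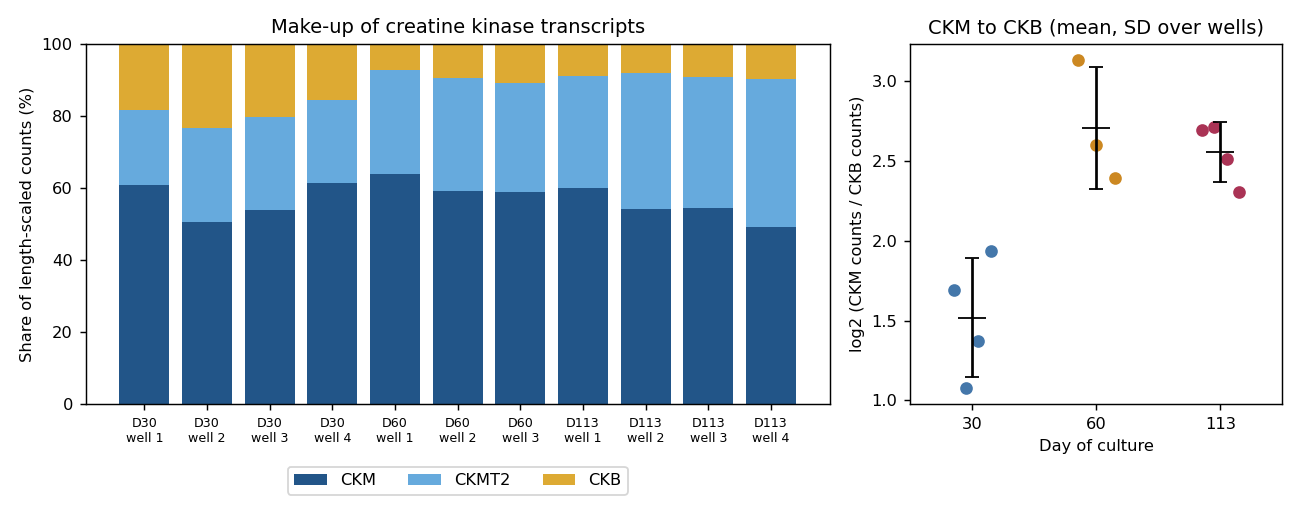
Left, share of CKM, CKMT2 and CKB in the sum of their length-scaled counts (percent, stacked bars from 0 to 100, 1 bar per well); right, log2 ratio of CKM to CKB counts per well by day, with mean and SD (n = 4, 3 and 4). The CKB share was 15.6% to 23.2% in the Day 30 wells and 7.09% to 10.9% in all later wells.

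After division by transcript length, the kinase pool can be set out as shares. CKM made up 56.7% ± 5.32 of the summed CKM, CKMT2 and CKB counts per kilobase at Day 30 (SD, n = 4), 60.7% ± 2.76 at Day 60 (n = 3) and 54.5% ± 4.38 at Day 113 (n = 4). The share of CKMT2 was 24.0% ± 2.55, 30.1% ± 1.11 and 36.6% ± 4.20 on the same days, and that of CKB was 19.3% ± 3.23, 9.16% ± 1.93 and 8.98% ± 0.697. The lowest CKMT2 share at Day 60 (29.01%) was above the highest at Day 30 (26.2%), and the Day 113 range (31.1% to 41.2%) reached just below the highest Day 60 share (31.2%). The sum of the 3 was 305 ± 26.0, 544 ± 87.4 and 479 ± 78.5 CPM per kilobase, with all later wells above the Day 30 wells. These shares and sums were not tested.

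SLC6A8 (X chromosome, 153688099 to 153696593, plus strand, 14 exons) encodes the sodium- and chloride-dependent creatine transporter of the cell surface. Day 30 wells had 115, 107, 104 and 103 CPM (107 ± 5.28, SD, n = 4), Day 60 wells 199.5, 149.6 and 143 CPM (164 ± 30.7, SD, n = 3), and Day 113 wells 121, 144, 149 and 129 CPM (136 ± 13.4, SD, n = 4). All later wells were above all Day 30 wells, and Day 60 well 1 stood above the rest. SLC6A8 rose 1.53-fold by Day 60 (log2 fold change 0.61 ± 0.117, SE; edgeR, adjusted p = 0.00332) and was 1.26-fold above Day 30 at Day 113 (0.34 ± 0.110, adjusted p = 0.0245). The Day 113 call was lost without Day 30 well 3 (0.32, adjusted p = 0.0628), Day 30 well 4 (0.32, 0.0628) or Day 113 well 3 (0.29, 0.0773). Near-identical partial copies of SLC6A8 elsewhere in the genome can share its reads, so its level is uncertain.

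GATM (chromosome 15, 45361124 to 45402327, minus strand, 9 exons) encodes the mitochondrial enzyme of the first step of creatine synthesis, and its level was lowest at Day 60. Day 30 wells had 39.0, 41.1, 36.9 and 34.8 CPM (37.9 ± 2.69, SD, n = 4). Day 60 wells had 28.9, 30.7 and 29.3 CPM (29.6 ± 0.928, SD, n = 3), and Day 113 wells had 58.0, 48.8, 47.5 and 50.3 CPM (51.1 ± 4.69, SD, n = 4). No well of one day fell within the range of another, with Day 60 lowest and Day 113 highest. GATM rose 1.73-fold from Day 60 to Day 113 (log2 fold change 0.79 ± 0.107, SE; edgeR, adjusted p = 0.000113) and was 1.35-fold above Day 30 at Day 113 (0.43 ± 0.0975, adjusted p = 0.00276). It was 1.28-fold lower at Day 60 than at Day 30 (-0.36 ± 0.107, edgeR, adjusted p = 0.0425), a call near the threshold. That fall no longer passed when any of Day 30 wells 1 to 3, any Day 60 well, or Day 113 wells 3 or 4 was left out (-0.38 to -0.30, adjusted p from 0.0512 to 0.166). A stretch of 94 exon bases overlaps an antisense gene, AC025580.3, which the table does not list.

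Markers of other cell types also moved over the 3 days. Between Day 30 and Day 60, 0 of 6 endothelial markers passed, with a median log2 fold change of -0.55 beside -0.01 over all genes. Of 9 fibroblast and epicardial markers, 2 rose and 3 fell in that interval, where 4.39% and 5.91% of all genes did. The median of these 9 was -0.57. All 6 endothelial markers rose at Day 113 against both other days. Of all genes, 12.9% were higher at Day 113 than at Day 60 and 17.3% than at Day 30. The endothelial sum was 54.0 to 76.0 CPM in the Day 30 wells, 37.5 to 61.3 CPM at Day 60 and 184 to 761 CPM at Day 113. The 9 fibroblast and epicardial markers summed to 3358 to 7713, 2087 to 3594 and 5477 to 13080 CPM on these days. Between Day 60 and Day 113, 6 of them rose and 1 fell, beside 12.9% and 11.1% of all genes. Day 113 well 1 had the highest GATM level of all wells, and also the highest endothelial sum (761 CPM) and fibroblast and epicardial sum (13082 CPM). The same well had the lowest Day 113 levels of CKM, CKMT2, CKB, MB, SLC6A8 and GAMT. The other Day 113 wells did not keep the order of GATM and these sums. Well 4, next highest in GATM (50.3 CPM), had the lowest Day 113 endothelial and fibroblast and epicardial sums (184 and 5477 CPM). Well 3 had the lowest Day 113 GATM level (47.5 CPM) and sums of 347 and 11308 CPM. Of 10 liver-type endoderm markers, 9 were lower on both later days than on Day 30. Over all genes, 5.91% were lower at Day 60 and 17.2% at Day 113. The liver-type sum was 473 to 1379 CPM at Day 30, 47.3 to 58.2 CPM at Day 60 and 26.7 to 46.9 CPM at Day 113. Kidney, a tissue known for GATM, was covered by 6 measured tubule and epithelial markers (sums of 633 to 1002, 439.9 to 572 and 69.8 to 215 CPM). Of these 6, 4 were lower at Day 113 than at Day 30, beside 17.2% of all genes. Each marker of these lists had reads in some well of each day, but some were near 0, such as FOXA2 at a mean of 0.0123 CPM at Day 60. Their part in the GATM result was not tested.

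**Figure D3:**
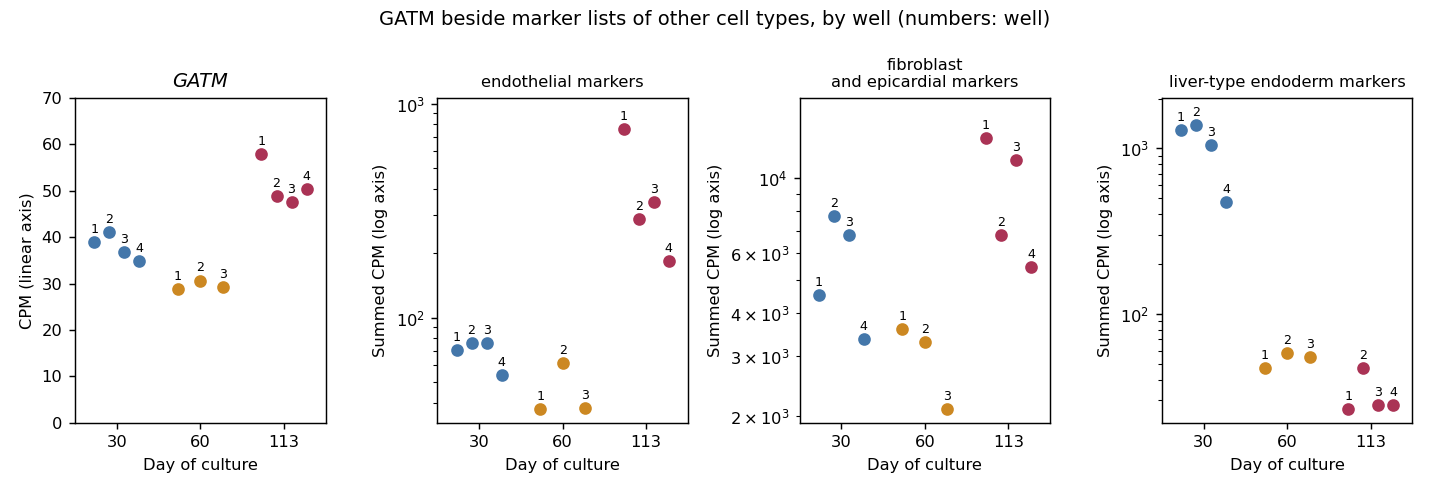
GATM level (CPM, linear axis from 0) and summed levels of endothelial, fibroblast and epicardial, and liver-type endoderm markers (CPM, log axes) in each well by day; small numbers name the wells. The endothelial sum is 184 CPM or more in all 4 Day 113 wells and 76.0 CPM or less in all others, and GATM is also highest in the 4 Day 113 wells.

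GAMT (chromosome 19, 1397026 to 1401570, minus strand, 6 exons) encodes the methyltransferase that completes creatine. Day 30 wells had 74.9, 85.4, 72.6 and 85.5 CPM (79.6 ± 6.80, SD, n = 4), Day 60 wells 81.5, 79.9 and 77.6 CPM (79.7 ± 2.00, SD, n = 3), and Day 113 wells 53.9, 103, 68.2 and 70.6 CPM (74.0 ± 20.9, SD, n = 4). All days overlapped, and the Day 113 wells held both the lowest and the highest value. No difference passed the test, and the 95% intervals of the log2 fold change were -0.34 to 0.34 by Day 60 and -0.42 to 0.21 between Day 30 and Day 113 (edgeR, adjusted p = 0.998 and 0.63). Changes of that size therefore remained possible. Without Day 113 well 2, the well at 103 CPM, GAMT was lower at Day 113 than at Day 30 (-0.31, adjusted p = 0.0302). The ratio of GATM to GAMT counts was 0.408 to 0.521 in the Day 30 wells, 0.354 to 0.384 at Day 60 and 0.472 to 1.07 at Day 113.

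MB (chromosome 22, 35606764 to 35637951, minus strand, 6 exons) encodes myoglobin, the oxygen-binding protein of heart and slow skeletal muscle. Day 30 wells had 153, 149, 150.3 and 165 CPM (154 ± 7.05, SD, n = 4), Day 60 wells 274, 259 and 263 CPM (265 ± 7.66, SD, n = 3), and Day 113 wells 166, 240.4, 188 and 182 CPM (194 ± 32.2, SD, n = 4). The 3 days did not overlap, although the lowest Day 113 well was close to the highest Day 30 well. MB rose 1.72-fold by Day 60 (log2 fold change 0.78 ± 0.111, SE; edgeR, adjusted p = 0.000377) and then fell 1.37-fold (-0.45 ± 0.112, adjusted p = 0.00835). At Day 113 it remained 1.26-fold above Day 30 (0.33 ± 0.104, edgeR, adjusted p = 0.0209), a call lost without Day 30 well 1 (0.33, adjusted p = 0.0519) or well 3 (0.32, 0.0547).

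**Figure D4:**
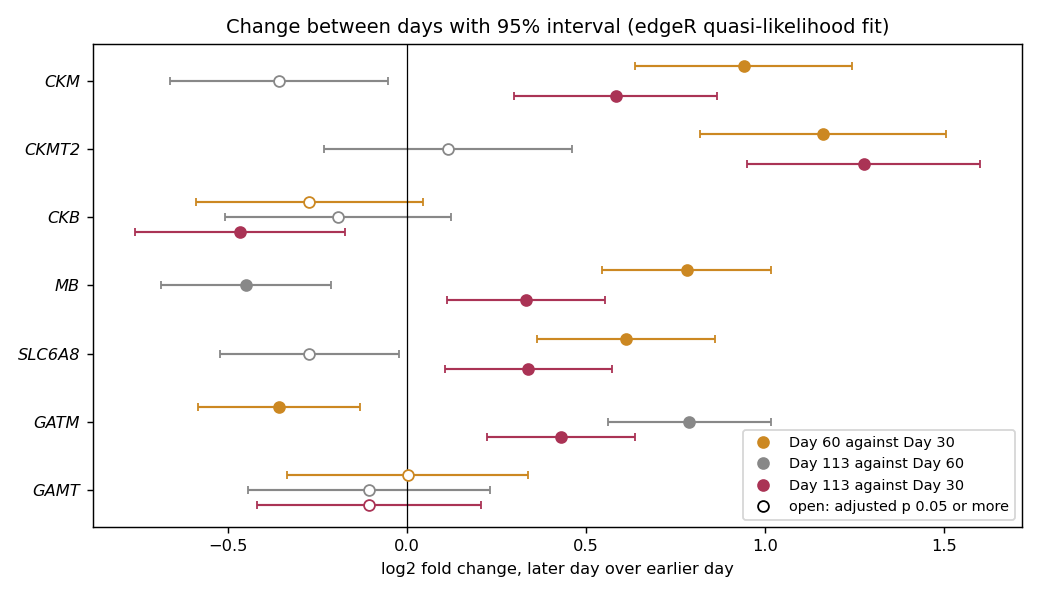
log2 fold change of each gene for the 3 pairs of days with 95% intervals from the edgeR fit of all 11 libraries; filled points have an adjusted p under 0.05 and open points do not. CKM, CKMT2, MB and SLC6A8 lie right of 0 at both later days against Day 30, and MB and GATM have filled points on opposite sides of 0 for Day 113 against Day 60.

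Whether a change continued at the same size was tested as the change after Day 60 minus the change before it, over intervals that differ in length. This difference passed for 5 of the 7 genes, where 9.34% of all genes passed (4.97% above and 4.38% below 0). It was below 0 for CKM (-1.30 ± 0.247, SE; edgeR, adjusted p = 0.00451), MB (-1.23, 0.00137), CKMT2 (-1.05, 0.0294) and SLC6A8 (-0.89, 0.014), and above 0 for GATM (1.15, 0.00211). Of these calls, 3 were lost when a single well was left out. Without Day 60 well 1 the differences were -0.96 for CKM (adjusted p = 0.0517), -0.86 for CKMT2 (0.165) and -0.59 for SLC6A8 (0.117), and 2 of the 7 genes passed. The CKMT2 call was also lost without Day 60 well 2 or 3, Day 30 well 1 or 3, or Day 113 well 3 (adjusted p from 0.0503 to 0.0725). The calls for MB and GATM were kept with any 1 well left out. Upper-quartile scaling moved the share of higher calls over all genes from 53.2% to 40.2% in this contrast.

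The level of a gene relative to cardiomyocyte transcripts depended on the marker it was set against, and the markers themselves moved in both directions. From Day 30 to Day 113, 4 of the 13 rose and 2 fell, beside 17.3% and 17.2% of all genes. Those that rose included TNNT2 (by 0.66 on the log2 scale, edgeR, adjusted p = 0.00324), which encodes the cTnT protein used for purity. The 2 that fell were MYH7 (-0.73, 0.000521) and ACTN2 (-0.64, 4e-04). CKM counts were 9.25% to 11.5% of TNNT2 counts in the Day 30 wells, 14.6% to 21.3% at Day 60 and 8.88% to 10.6% at Day 113, with Day 113 and Day 30 overlapping. Against MYH7 the same shares were 1.75% to 2.04%, 3.24% to 4.34% and 3.77% to 5.51%, with every later well above Day 30. Against the sum of all 13 markers, CKM stood at 0.635% to 0.691%, 1.05% to 1.34% and 0.983% to 1.21%, and CKMT2 at 0.234% to 0.348%, 0.546% to 0.602% and 0.504% to 0.877%, both without overlap between Day 30 and either later day. MB was at 0.320% to 0.422% of the sum at Day 30, 0.538% to 0.584% at Day 60 and 0.421% to 0.563% at Day 113, so the Day 113 and Day 30 wells just overlapped. Taken marker by marker, all Day 113 wells exceeded all Day 30 wells against 8 of 13 markers for CKM, 10 for CKMT2, 5 for MB, 4 for SLC6A8 and 5 for GATM, and all were lower against 2, 1, 3, 2 and 2. MB showed both: against TNNT2 every Day 113 well was below every Day 30 well (4.13% to 4.89% beside 5.03% to 6.65%), and against MYH7 every one was above (1.61% to 2.56% beside 0.812% to 1.26%). These ratios were chosen after the values were seen, are a description and were not tested.

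Levels can be compared between genes only per length. In CPM per kilobase of the principal transcript, the order at Day 30 was CKM at 173 ± 23.0 (SD, n = 4), MB at 129 ± 5.89, CKMT2 at 73.0 ± 7.93, GAMT at 71.0 ± 6.07, CKB at 59.1 ± 12.2, SLC6A8 at 28.5 ± 1.40 and GATM at 14.6 ± 1.04. The wells of CKMT2, GAMT and CKB overlapped, and CKM and MB did not overlap each other. At Day 60 the order was the same, with CKM at 332 ± 69.2, MB at 221.5 ± 6.40 and CKMT2 at 163 ± 20.4 (SD, n = 3). At Day 113, CKM stood at 259 ± 35.5, CKMT2 at 177 ± 43.9 and MB at 162 ± 26.9 (SD, n = 4), and the wells of CKMT2 and MB overlapped. The place of GAMT rests on the transcript chosen. By the union of its exons (2243 bases, against 1121 in the principal transcript) it had 35.5 CPM per kilobase at Day 30, below CKB. The lead of MB over CKMT2 at Day 60 also rests on this choice. By the union of exons (1637 bases for MB, against 1197), MB was at 162 ± 4.68 and CKMT2 at 159 ± 19.9 CPM per kilobase (SD, n = 3).

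The genes whose levels followed each of the 7 most closely over the 11 libraries were found by Pearson's r of log2 CPM among 11939 genes of at least 5 CPM on average. All libraries share day, so r mostly follows the days, and it is a description. CKM was closest to CORO6 (r = 0.976), MPC1 (0.963), a subunit of the mitochondrial pyruvate carrier, and KCNQ1 (0.956), a potassium channel. CKMT2 was closest to EIF1AY (0.970), PIP5K1B (0.961) and SERPINI1 (0.960), and SLC6A8 to NOL3 (0.939), the muscle phosphofructokinase gene PFKM (0.932) and INSIG1 (0.931). MB was closest to NT5M (0.975), a mitochondrial nucleotidase, CRYBA4 (0.952) and SH3BP2 (0.950). The size of the changes can differ at a high r: CRYBA4 averaged 0, 56.8 and 5.76 CPM on the 3 days, and MB 154, 265 and 194. GATM was closest to MYO1C (0.972), DUSP6 (0.970) and CD93 (0.969), an endothelial surface receptor whose mean went from 24.1 to 9.01 and 146 CPM. CKB was closest to DBNDD1 (0.927), PPAT (0.913) and SLC35D1 (0.887), and GAMT to UQCRH (0.950), BRK1 (0.934) and the ribosomal gene RPSA (0.930). Among the 7 themselves, r was 0.940 for CKM with SLC6A8 and 0.911 for CKM with MB, and 0.749 and 0.649 after the mean of each day was removed. MB and GAMT had r = 0.347 over all libraries and 0.929 within days. Both spread most at Day 113, where well 2 was highest for both (240 and 103 CPM) and well 1 lowest (166 and 53.9 CPM).

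Related genes were counted in lists and read against all genes, of which 34.5% passed between Day 30 and Day 113 (17.3% higher and 17.2% lower). A list of 17 measured genes covered the arginine, glycine and methyl groups used in creatine synthesis, and also held the creatine transporter SLC16A12. Of the 17, 6 were higher and 4 lower at Day 113 than at Day 30, 10 of 17 in all, with a median log2 fold change of 0.25. SLC16A12, outside the naming rule and chosen after its values were seen, was among the 4 (122 ± 11.2 to 80.7 ± 10.5 CPM, SD, edgeR, adjusted p = 0.000562). The arginine transporter SLC7A2 fell from 136 ± 16.9 CPM (SD, n = 4) to 64.5 ± 11.5 (edgeR, adjusted p = 2.39e-05), and AHCY, which clears the by-product of methylation, fell from 238 ± 7.81 to 157 ± 9.85 (2.87e-05). ASL, which releases arginine, rose from 6.61 ± 1.49 to 13.5 ± 2.99 CPM (0.000829), and MAT1A, which makes the methyl donor, rose from 19.5 ± 2.55 to 33.0 ± 2.49 (0.000236). Of 13 adenylate kinase, AMP deaminase and adenylosuccinate genes, 2 rose and 2 fell, which is no larger a share than over all genes. AK1, the cytosolic adenylate kinase of muscle, went from 63.9 ± 1.82 to 100.3 ± 18.7 CPM (0.00027) and the muscle adenylosuccinate synthase ADSSL1 from 33.9 ± 4.53 to 43.9 ± 5.14 (0.0416), while the AMP deaminase genes AMPD2 (58.9 to 35.9 CPM, 0.00021) and AMPD3 (17.5 to 11.1 CPM, 0.00593) fell. Among 7 nucleoside diphosphate kinases, NME5 rose from 2.12 ± 0.876 to 5.16 ± 0.942 CPM (0.00615), the 1 of 7 to pass in that comparison, and 3 of the 7 rose between Day 60 and Day 113, where 12.9% of all genes did.

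The partners through which mitochondrial ATP reaches the kinases included genes that rose and genes that fell. Of 6 measured carriers and channels, 2 rose and 3 fell between Day 30 and Day 113, where 17.3% and 17.2% of all genes did. SLC25A4, the heart and muscle adenine nucleotide translocase, rose from 406 ± 54.7 to 517 ± 55.5 CPM (SD, n = 4 each; edgeR, adjusted p = 0.0318), and SLC25A5, the form of proliferating cells, fell from 258 ± 8.66 to 175 ± 22.6 (0.000269). The outer membrane channel VDAC3 rose from 131 ± 7.78 to 196 ± 33.0 CPM (0.00065), and the phosphate carrier SLC25A3 fell from 674 ± 25.5 to 516.5 ± 76.7 (0.00774). Another list held 7 measured genes, which encode subunits of AMP-activated protein kinase and, as 1 of the 7, its activator STK11. Of these, PRKAG2 (121 ± 14.2 to 156 ± 10.4 CPM, 0.015) and PRKAG1 (49.2 ± 2.01 to 61.9 ± 6.04, 0.0107) rose. PRKAB2 fell (171 ± 5.14 to 144 ± 11.3, 0.0406), which made 3 of 7 beside 34.5% of all genes. Without Day 30 well 1 or well 3, 1 of these 7 passed. Of the 6 calcium pump and M-band genes, 1 passed at Day 113, below the share over all genes, and that call was lost without Day 30 well 2 or Day 113 well 4. That gene, MYOM2, which encodes an M-band protein, is outside the naming rule and was singled out after its values were seen (0.737 ± 0.219 to 2.08 ± 1.02 CPM, adjusted p = 0.0199).

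**Figure D5:**
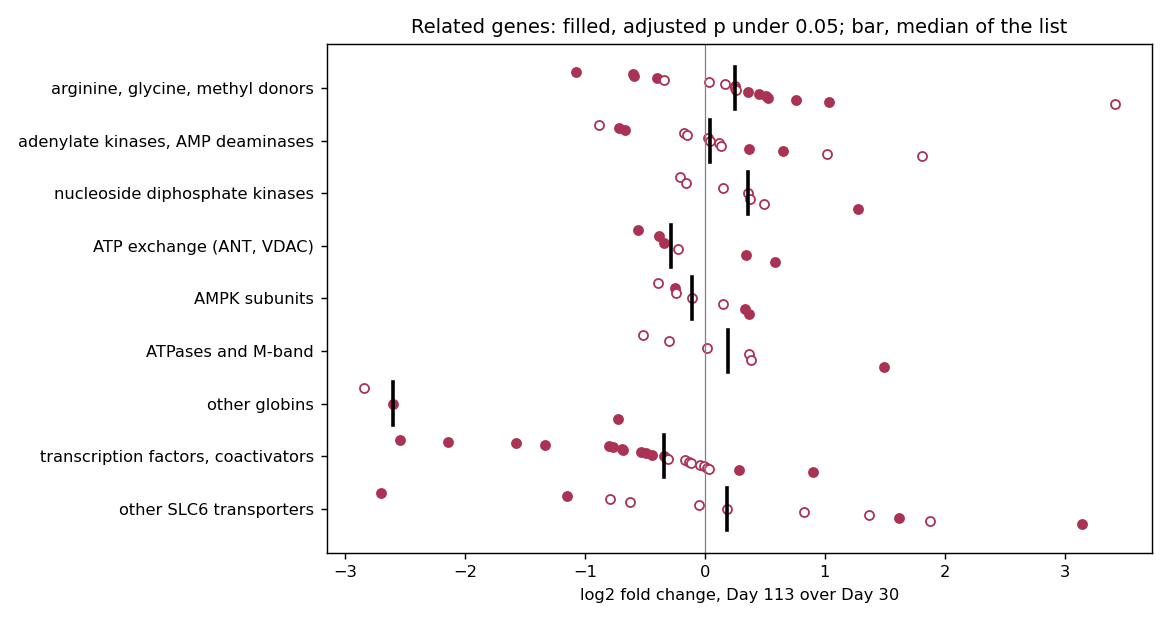
log2 fold change, Day 113 over Day 30, of each measured gene in 9 related lists (1 point per gene, spread vertically within a list only for legibility); filled points have an edgeR adjusted p under 0.05 and vertical bars are list medians. The median of the transcription factor list, which also holds the calcineurin genes PPP3CA and PPP3CB, is -0.34. In that list 13 of 15 filled points lie left of 0.

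Genes listed as transcription factors and coactivators known to act on creatine kinase or myoglobin genes were mostly lower late in culture. The 23 measured also include PPP3CA and PPP3CB, which encode subunits of the phosphatase calcineurin and are outside the naming rule. Of the 23, 2 were lower at Day 60 than at Day 30, beside 5.91% of all genes. At Day 113, 13 were lower and 2 higher than at Day 30, which is 15 of 23 beside 34.5% of all genes, with a median of -0.34. These calls include PPP3CA, lower on both later days (edgeR, adjusted p = 0.0425 and 0.00236), and PPP3CB, higher at Day 113 (0.0306). SRF, which binds serum response elements of muscle genes, rose from 90.7 ± 14.8 to 169 ± 16.7 CPM (SD, n = 4 each; edgeR, adjusted p = 7.66e-05). NFATC2, a calcineurin target, fell from 20.3 ± 1.32 to 8.07 ± 2.89 CPM (7.21e-05), the homeobox gene SIX4 from 23.1 ± 1.39 to 7.73 ± 1.59 (3.02e-06), and ESRRB from 10.8 ± 3.01 to 2.45 ± 1.55 (0.000819). For the MEF2, oestrogen-related receptor and TEAD motifs printed above, genes outside the naming rule were looked up after values were seen. For Day 113 against Day 30, the MEF2 genes gave 0.03 for MEF2A, -0.31 for MEF2C and -0.11 for MEF2D (adjusted p = 0.886, 0.149 and 0.477). In the same comparison ESRRG, an oestrogen-related receptor of heart, fell by 0.77 on the log2 scale (0.000144). ESRRA gave -0.0026 (0.991) and TEAD1 -0.13 (0.49). By Day 60, over the interval in which the printed genes rose, none of these passed (edgeR, adjusted p from 0.151 to 0.989). There ESRRG gave -0.01 and TEAD1 0.34. Factors that read the E-box CANNTG were not in this lookup. Of the skeletal muscle markers, MYOG passed as higher by Day 60 (0.0363 to 0.835 CPM, edgeR, adjusted p = 0.0173), and MYOD1 did not (0.0847). Their part in the results was not tested.

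Of 11 measured SLC6 transporters other than SLC6A8, 2 were higher and 2 lower at Day 113 than at Day 30, a share near the 34.5% of all genes. The serotonin transporter SLC6A4 fell from 53.6 ± 10.7 CPM at Day 30 to 13.4 ± 5.44 at Day 60 and 8.22 ± 1.50 at Day 113 (edgeR, adjusted p = 0.000108 by Day 60). SLC6A16 fell from 11.4 ± 1.76 to 5.14 ± 0.793 CPM between Day 30 and Day 113 (0.000267), and SLC6A15, a neutral amino acid transporter, rose from 1.84 ± 0.851 to 5.67 ± 4.53 (0.026, wells overlapping). Of 13 other globins, 3 were measured, and 2 of them, CYGB and HBD, were lower at Day 113 than at Day 30, beside 17.2% of all genes. Cytoglobin (CYGB) was at 13.4 ± 2.56, 15.2 ± 3.46 and 8.09 ± 1.65 CPM on the 3 days (0.0113 for Day 113 against Day 30), and like MB it fell between Day 60 and Day 113 (0.00669). HBD, a haemoglobin chain outside the naming rule and chosen after its values were seen, was at 1.76 ± 1.13, 1.67 ± 0.639 and 0.284 ± 0.115 CPM (0.00208).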

How the data were processed

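Read counts per gene, deposited by the authors without normalization, cover 19990 gene symbols and 11 libraries. STAR 2.5.3a, featureCounts 2.0.3 and hg38 are named in the submitters' processing notes, and the counting settings, strand use and annotation are not given in the sources used here. The deposited TPM values were not tested: the gene length implied by count over TPM differed between libraries by a median of 73.8-fold per gene, and the Day 30 MB values ran from 15.2 to 438 TPM.

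Counts were tested with edgeR 4.0.16 (quasi-likelihood F-test, TMM scaling, all 11 libraries in 1 fit, day as the only factor) in R 4.3.3. A filter at a minimum count of 10 removed 0 genes, the biological coefficient of variation was 0.282, and TMM factors were 0.966 to 1.04. P-values were adjusted by Benjamini-Hochberg over all 19990 genes of a contrast, and 0.05 was the threshold. Adjusted p-values come from this fit where no other tool is named, and a value in parentheses after a gene's levels is its adjusted p. The SE was obtained from the log2 fold change and its F statistic, as the size of the former over the root of the latter. CPM used TMM library sizes. The CKM to CKB ratio used a pseudocount of 0.5 and exact permutation over wells. Lengths and coordinates are from GENCODE basic annotation on GRCh38. RefSeq promoter entries matched 6 of the 7 genes (8 start sites). Alternatives were DESeq2 1.42.0, limma-voom (limma 3.58.1), other scaling and filters, and leaving out each well. 

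The 7 genes and the related lists were chosen with earlier results of these data known. From each list, up to 4 genes were named: those with the largest absolute change between Day 30 and Day 113 among genes with an adjusted p under 0.05 and at least 5 CPM on the higher day. The 3 closest genes by Pearson's r were named for each of the 7.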

Additional observations from a re-analysis of the deposited data

Results flagged for a closer look

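In 2 of 14 groups of 4 wells examined (the 7 genes at Days 30 and 113), 1 well stood apart by Dixon's criterion, which chance passes in about 1 of 20 groups. For CKM at Day 113 it was well 2, at 517 CPM beside 389 to 408 CPM in the others, with a gap of 0.848 of the range. For CKMT2 at Day 30 it was also well 2, at 139 CPM beside 112 to 115 CPM, with a gap of 0.863.

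The change after Day 60 differed from the change before it, by the edgeR contrast of the intervals, for 5 genes. It was lower after Day 60 by 1.30 (CKM, -1.30), 1.05 (CKMT2, -1.05), 1.23 (MB, -1.23) and 0.885 (SLC6A8, -0.885) on the log2 scale, and higher by 1.15 for GATM.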

How the results depend on the processing

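The limits are those of 3 or 4 wells a day from 1 differentiation. The main calls for CKM, CKMT2, MB and SLC6A8 at Day 60 against Day 30, for CKM and CKMT2 at Day 113 against Day 30, for MB at Day 113 against Day 60, and for GATM at Day 113 against both other days, kept direction and side of the threshold under every alternative run. Depth did not limit the 7 genes, which had counts in all libraries, and the cause of each change below was not tested.

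Among settings other than a well left out, the Day 60 fall of GATM missed the threshold with upper-quartile scaling (-0.318), with a filter of 1 CPM in 3 libraries (-0.325) and with limma-voom (-0.356), at adjusted p from 0.0522 to 0.0686. From Day 60 to Day 113, CKM passed with DESeq2 (-0.375) and upper-quartile scaling (-0.422), and SLC6A8 with upper-quartile scaling (-0.337, adjusted p = 0.0443), which made 4 of the 7 genes called in place of 2. Differences near 0 changed sign for GAMT at Day 60 with library totals alone (-0.000169) and for CKB between the intervals with upper-quartile scaling (-0.0275). Upper-quartile scaling moved the share of higher calls between the intervals from 53.2% to 40.2%. The calcium pump and M-band list had 1 call at Day 113, 2 with DESeq2, upper-quartile scaling or robust dispersions, and 3 with the replicate block.

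The labels give well numbers no shared origin, and the wells were not treated as paired. Deviations of same-numbered wells correlated at 0.0224 to 0.158 over 10 pairs, 4 of them over 0.1, and 14 of 20 checks were highest with the own number, so a weak pairing remains possible. With the replicate block, 2474, 4954, 7143 and 2366 genes passed in the 4 contrasts (2060, 4790, 6889 and 1868 without it) and no call of the 7 genes changed. The blocked CKM to CKB differences of 1.33 by Day 60 (exact permutation p = 0.25) and 1.04 by Day 113 (exact permutation p = 0.125) had the smallest p that such pairs allow.

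With each well left out in turn, the log2 changes ran as follows. By Day 60 they were -0.373 to -0.112 for CKB, -0.397 to -0.296 for GATM and -0.0402 to 0.0584 for GAMT. From Day 60 to Day 113 they were -0.459 to -0.183 for CKM, -0.0010 to 0.258 for CKMT2, -0.256 to -0.103 for CKB, -0.371 to -0.117 for SLC6A8 and -0.310 to 0.0198 for GAMT. From Day 30 to Day 113 they were -0.567 to -0.319 for CKB, 0.214 to 0.400 for MB, 0.290 to 0.392 for SLC6A8 and -0.309 to 0.0212 for GAMT. Between the intervals they were -1.50 to -0.963 for CKM, -1.17 to -0.863 for CKMT2, -0.0948 to 0.245 for CKB, -1.10 to -0.589 for SLC6A8 and -0.311 to 0.0183 for GAMT, with 2 to 5 of the 7 genes passing. All genes called ran from 1220 to 2618 by Day 60 and from 643 to 2221 between the intervals. At Day 113, 1 to 2 nucleoside diphosphate kinases, 1 to 3 AMP-activated kinase genes and 0 to 2 calcium pump and M-band genes passed. The CKM to CKB difference was 0.976 to 1.34 by Day 60, 0.890 to 1.18 by Day 113 and -0.307 to 0.0607 between these days, where 3 wells against 3 or 2 against 4 cannot reach the threshold for Day 60. The Day 113 against Day 30 difference also missed it (adjusted p = 0.0857) without any Day 30 or any Day 60 well, as the values are adjusted over 3 tests.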
